A study of Mus musculus with 14 samples.

Results

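Pools of the smallest tumors from the lungs of mice with an SPC/myc transgene were compared with the lung of non-transgenic mice on Affymetrix Murine Genome U74v2 arrays, which measure mRNA with sets of short probes. The comparison used 7 of the 14 arrays of the study, those whose titles name small-sized tumors (3 arrays) or non-transgenic control lung (4 arrays). The transgenic mice were hemizygous for c-Myc under the surfactant protein C (SPC) promoter, which is active in respiratory epithelium, and the control mice lacked the transgene. Both groups had the CD2F1-(DBA/2xBalb/C) background and were aged 9 to 13 months. Each small-tumor array held RNA of 3 to 4 tumors of about 1 mm that were dissected from the lungs of 1 animal and pooled, because a single tumor gave too little RNA. Each control array held whole lung of 1 animal, so that vessels, airways and stroma were part of the control, whereas the tumors had been cut out of the surrounding tissue. The 4 middle-sized (4 to 5 mm) and 3 large (over 10 mm) tumors of the same transgenic line are used only to show where the small tumors differed from them.

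c-Myc is a transcription factor that pairs with Max and binds E-box motifs, and it is best known for driving ribosome production, metabolism and entry into the cell cycle. Max also pairs with Mxd proteins and Mnt, which act on the same motifs as repressors. SPC is made by alveolar type II cells, the surfactant-producing epithelial cells of the alveolus, which also replace the flat alveolar type I cells that serve gas exchange. The alveolar wall further holds a dense capillary bed, fibroblasts and macrophages, and in mice a sleeve of cardiac muscle surrounds the larger pulmonary veins.

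The deposited values were linear MAS5 signals, scaled by the authors to a target of 250 on each array, and between 6991 and 7575 probe sets per array reached the signal of 70 that the methods used as the limit of an expressed gene. The 3 pools were close to each other (Pearson's r of 0.970 to 0.980 on the log2 scale across the 6602 probe sets tested, which are not independent) and so were the control lungs (0.924 to 0.982), whereas r between a pool and a control lung was 0.780 to 0.820. The median SD of log2 signals was 0.15 between pools and 0.23 between control lungs. Xist, which is transcribed in female cells, was above 70 on the arrays of pool 1 and control lung 3, so that sex was mixed in both groups. The number of arrays limits the precision of every value below.

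In the small tumor pools, 1691 of 6602 probe sets were higher and 1403 lower than in control lung at an adjusted p under 0.05 (limma with Benjamini-Hochberg adjustment), so that 46.9% of all probe sets were called, 25.6% as higher and 21.3% as lower. A change of at least 3-fold was found for 170 probe sets that were higher (2.57%) and 313 that were lower (4.74%). All 3 pools lay above all 4 control lungs for 28.5% of the probe sets and below all of them for 23.9%. The median log2 fold change over all probe sets was 0.01, and it moved by 0.12 when every array was scaled to 1 median, which raised the share of calls that were higher from 54.7% to 63.9%. Signals under 70 were set to 70 before the test. Of the probe sets tested, 157 were below 70 in every control lung and had passed the filter (at least 70 on 3 of 7 arrays) only through the pools, and 323 were below 70 in every pool. Where a gene lay under 70 on all arrays of 1 group and reached it on all arrays of the other, the fold change is a lower bound (written as at least), and its SE and p leave out the spread of the group set to 70.

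Among genes expressed in both groups, mitosis genes made up 4 of the 9 largest rises described here. Cks1b, a subunit of cyclin-dependent kinases, had signals of 94.6, 118, 133 and 152 in the control lungs and 908, 1229 and 1272 in the pools (log2 fold change 3.20, SE 0.20, adjusted p = 2.7e-06). Kif22, a chromosome-binding kinesin, read 116, 118, 96.7 and 105 in control lung and 717, 1018 and 898 in the pools (log2 fold change 3.00, SE 0.17, adjusted p = 1.7e-06). The activator of the anaphase-promoting complex Cdc20 and the mitotic cyclin Ccnb2 rose by 2.98 (SE 0.23) and 2.92 (SE 0.23) on the log2 scale. For each of these 4 genes pool 1 had the lowest signal of the 3 pools.

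The other 5 were in none of the cell cycle lists. Mgst2, a microsomal glutathione S-transferase, was barely above the limit of 70 in control lung (78.1, 81.7, 81.0 and 70.1) and read 710.5, 867 and 1026 in the pools (log2 fold change 3.47, SE 0.17, adjusted p = 1.5e-06). Fkbp11, a prolyl isomerase of the secretory pathway, went from 79.5 ± 12.4 (SD, n = 4) to 629 ± 42.2 (SD, n = 3), with a log2 fold change of 2.97. Mitochondrial arginase Arg2 (2.90), the serine synthesis enzyme Psat1 (2.87) and the transcript listed as D17H6S56E-5 (2.89) complete the group, with adjusted p-values of 3.7e-05, 1.8e-05 and 1.4e-05. Arg2 varied more between pools (354, 756 and 883) than the others, against 72.7 to 89.7 in control lung.

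The 10 largest falls among genes expressed in both groups were led by Hpgd, the enzyme that inactivates prostaglandins, with signals of 2321, 2691, 1575 and 1100.3 in control lung and 58.3, 113 and 54.0 in the pools (log2 fold change -4.46, SE 0.30, adjusted p = 4.6e-06). Vessel genes were 5 of the 10. Thrombomodulin (Thbd), an anticoagulant receptor of the vessel wall, read 1743, 1794, 1612 and 1118 in control lung and 82.9, 140.3 and 70.2 in the pools (log2 fold change -4.04, SE 0.25, adjusted p = 2.7e-06). Ramp2, a partner of the adrenomedullin receptor, (-3.82), the angiopoietin receptor Tek (-3.65), the adhesion molecule Icam2 (-3.63) and the lymphatic vessel receptor Lyve1 (-3.46) fell on the log2 scale. Alas2, the first enzyme of heme synthesis in red cells (-4.08), the flavin monooxygenase Fmo1 (-3.90), cysteine dioxygenase Cdo1 (-3.86) and Igfbp2, a binding protein of insulin-like growth factors found in alveolar type I cells (-3.52), were the others. The rule by which these 10 and the rises were named asked for groups without overlap. Lyve1 read 459 to 1503 in control lung and 54.4 to 137 in the pools. A bulk signal cannot tell fewer cells of a type from less RNA per cell, here and in all results that follow.

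**Figure D1:**
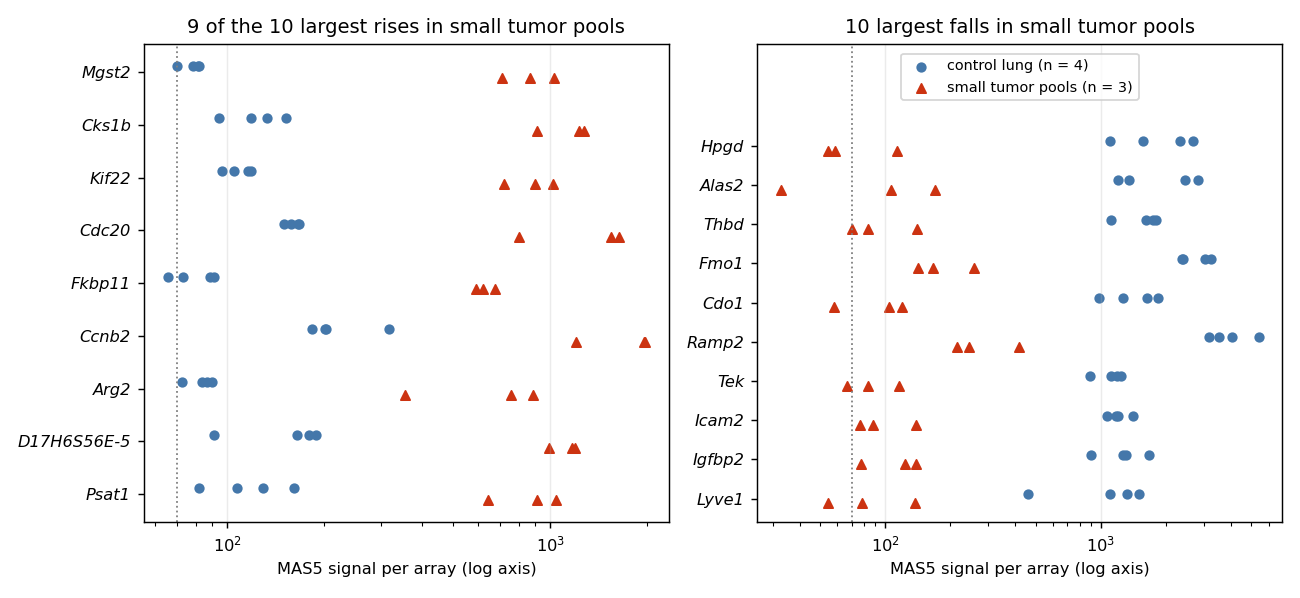
MAS5 signal per array (horizontal log axis) of 9 of the 10 largest rises (left) and the 10 largest falls (right) among genes with a mean signal of at least 70 in both groups, with 1 point per array, circles for the 4 control lungs, triangles for the 3 small tumor pools and a dotted line at 70. The genes were chosen for groups that do not overlap, and Hpgd drops from 1100.3 or more in control lung to 113 or less in the pools.

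Several genes crossed the limit of 70 altogether. Apob, the apolipoprotein of liver and gut lipoproteins, was at 23.6, 8.48, 17.2 and 42.3 in control lung and at 560.0, 1942 and 1558 in the pools, at least 17.0-fold higher (adjusted p = 1.8e-05). Kng1, the kininogen precursor made by the liver, was at least 13.8-fold higher, with signals of 35.7 to 57.1 in control lung and 1268, 813 and 879 in the pools. In the other direction, the atrial myosin light chains Myl7 and Myl4 and the alpha myosin heavy chain Myh6 were at least 19.8-fold, 14.8-fold and 9.95-fold lower, Myh11, the smooth muscle myosin heavy chain, at least 8.74-fold, the microtubule protein Mapt at least 13.5-fold and the natriuretic peptide clearance receptor Npr3 at least 10.4-fold. Myl7 illustrates the contrast, with 1098, 1052, 1507 and 2119.6 in the control lungs and 32.7, 4.31 and 6.92 in the pools. These 8 genes were chosen for lying on opposite sides of 70 in the groups.

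The mRNA of the transgene served to check the labels. The Myc probe set read 35.6, 24.1, 26.3 and 32.9 in the control lungs, all below the limit of 70, and 1738, 1391 and 1417 in pools 1, 2 and 3. Every pool was therefore above every control lung, by at least 21.5-fold (log2 fold change at least 4.43, adjusted p = 1.2e-07), and the pools differed among themselves by far less than from control lung. The array does not separate transgenic from endogenous Myc mRNA. Of the partners and competitors of Myc, Mxi1, a Max-binding repressor, read 334, 359, 286 and 291 in control lung and 591, 576 and 664 in the pools (log2 fold change 0.95, SE 0.13, adjusted p = 3.4e-04). Max itself rose by 0.63 (SE 0.14, adjusted p = 0.0038) and Mxd3 by at least 0.41, whereas Mnt (0.25), Mlx (0.20) and Mxd4 (-0.02) did not pass the test. In all, 4 of 8 tested members of this network were higher and 1 was lower, against 25.6% and 21.3% over all probe sets. Of the 6 members at 70 or more in a control lung 2 were higher. With any 1 pool left out 2 were called higher, as fewer members passed the filter and Myc was not tested. The lower one was Mycl, the L-Myc paralog (273, 193, 289 and 34.2 in control lung, 15.1 to 39.6 in the pools), where control lung 4 was as low as the pools and the call was lost in 11 of 21 alternatives (adjusted p = 0.0238, up to 0.163 in the alternatives).

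Of 12 tested regulators of the G1/S transition, 4 were higher and 3 lower, shares near the 25.6% and 21.3% over all probe sets. Cdk4, the kinase of D-type cyclins, read 782, 718, 829 and 1171 in control lung and 1789, 1796 and 1682 in the pools (log2 fold change 1.03, SE 0.16, adjusted p = 6.4e-04). Tfdp1, the dimer partner of E2F factors, rose from 329.6 ± 26.2 (SD, n = 4) to 1077 ± 144 (SD, n = 3) (log2 fold change 1.70, SE 0.13, adjusted p = 9.3e-06). For both genes the groups did not overlap, and a second probe set gave the same call. Cyclin D1 (Ccnd1, 0.70) and Cdk2 (0.87) rose less. The pocket protein Rb1, which holds E2F in check, fell from 196, 173, 194 and 152 to 80.2, 76.0 and 59.6 (log2 fold change -1.24, SE 0.15, adjusted p = 1.5e-04), although a second Rb1 probe set with signals near the limit was not called. Cyclin D3 (Ccnd3) fell by 0.64, and Rbl2 (-0.72) lost its call in 16 of 26 alternatives. E2f1 (-0.08) and Ccne1 (0.72, adjusted p = 0.0752) did not pass the test. Of 5 tested inhibitors of cyclin-dependent kinases, Cdkn2b (p15) fell from 240.4, 256, 295 and 219.6 to 106, 92.9 and 95.3 (log2 fold change -1.36, SE 0.16, adjusted p = 1.1e-04), and Cdkn1c (p57) rose from 399, 456, 366 and 355 to 924, 849.6 and 929 (log2 fold change 1.20, SE 0.13, adjusted p = 5.2e-05). Neither gene overlapped between groups. Cdkn1a (p21) differed by 0.15, with a 95% interval of -0.41 to 0.71.

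The canonical E-box of Myc and Max has the letters CACGTG, which read the same on both strands. RefSeq promoter windows of 300 bases (250 before to 50 after a start, GRCm38.p6) were at hand for 4742 tested genes, and 12.3% of those genes held the motif. The share was 13.8% of the genes called higher, 9.81% of those called lower and 12.6% of those not called. It was 12.9% of the genes at least 3-fold higher, so that most genes with a large rise had no CACGTG in these windows. Among the gene lists with at least 10 windows it ran from 0 to 33.3%, and it was as high in immediate early genes, of which 10 fell, as in aminoacyl-tRNA synthetases, of which 12 rose. These shares count a gene with the motif in any of its windows. Counted per window, 7.15% of all windows of the table held the motif, which cannot be set against the shares per gene. The 50 named genes with a positive log2 fold change and a window were searched for upstream motifs, and most had none listed. The stretches of Cdk4, Tfdp1 and the lactate dehydrogenase subunit Ldha are shown because these genes held the motif (Cdk4 with 3 copies) and rose without overlap. Picked in this way, they do not link a rise to the motif. They are on the plus strand, 5′ to 3′, with the motif in capitals.
Cdk4, chr10:127063353-127063378: ggcagccagtCACGTGccacacagcg
Cdk4, chr10:127063407-127063432: gtcaaggggtCACGTGggatagcaac
Cdk4, chr10:127063427-127063452: agcaacaggtCACGTGgccgtcaggg
Tfdp1, chr8:13338510-13338535: ggcgcgcacaCACGTGgcctctctcc
Ldha, chr7:46845649-46845674: tgtcgcagcaCACGTGgagccactct
Ldha, chr7:46845746-46845771: gcccagcctaCACGTGggttcccgca
The motifs lie 172, 118 and 98 bases before the start of Cdk4, 231 bases before that of Tfdp1, and 145 and 48 bases before that of Ldha. A match is a run of letters and not evidence of binding.

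DNA replication genes were called only as higher. Of 28 tested members, 22 rose and none fell, against 25.6% and 21.3% over all probe sets. The median log2 fold change was 0.82, against 0.01 over all probe sets. In 6 of the 28 every control lung was below 70, and of the other 22 members 16 rose. With any 1 pool left out 13 to 14 were called, as fewer passed the filter, and 19 on the same probe sets. Thymidine kinase Tk1, which salvages thymidine for S phase, read 131, 47.2, 130.1 and 209 in control lung and 528, 514 and 581 in the pools (log2 fold change 2.11, SE 0.31, adjusted p = 4.0e-04). The ribonucleotide reductase subunit Rrm1 was at 77.0, 97.3, 93.1 and 23.5 in control lung and 258, 285 and 285 in the pools (log2 fold change 1.72, SE 0.17, adjusted p = 3.4e-05). Mcm5, part of the replicative helicase, rose from 162, 178, 232 and 263 to 694, 642 and 676 (log2 fold change 1.71, SE 0.18, adjusted p = 5.9e-05), together with the helicase subunits Mcm7 (1.39), Mcm3 (0.83) and Mcm2 (0.59). The 3 genes with per-array values did not overlap between groups and differed little between pools. The sliding clamp Pcna rose by 0.58 (SE 0.12), the DNA polymerase delta subunit Pold2 by 1.62 and the topoisomerase Top2a by at least 1.53. Mcm4 (0.16), Rpa1 (0.06), Rfc2, Rfc3, Gmnn and Pola2 did not pass the test.

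The G2/M and mitosis genes had the highest median of all lists. Of 33 tested members, 31 were higher, 19 of them at least 3-fold, and none was lower, against 25.6% higher over all probe sets, and the median log2 fold change was 1.66. In 12 members every control lung was below 70, so that they were tested only through the pools, and of the other 21 members 19 rose. The proliferation marker Mki67 was at 31.6, 33.8, 23.7 and 14.8 in control lung and 393, 798 and 493 in the pools, at least 7.67-fold higher (adjusted p = 8.9e-06). The mitotic kinase Cdk1 was at 25.7, 35.7, 31.9 and 16.8 and 416, 539 and 529.9, at least 7.02-fold higher. Ect2, a protein needed for cytokinesis, was at 45.1, 34.9, 61.0 and 44.9 and 339.9, 557 and 532, at least 6.65-fold higher. In all 3 genes each pool was several times above each control lung, and a second, dim Mki67 probe set was not called. Cks2, the paralog of Cks1b, rose by 3.16 (SE 0.23), the cytokinesis proteins Kif23 and Prc1 by 2.48 and 2.44, the kinases Plk1 by 2.31 and Aurkb and Aurka by at least 1.91 and 1.27, cyclin A2 (Ccna2) by 1.81 and survivin (Birc5) by at least 1.77. Ube2c (0.30) and the mitotic transcription factor Foxm1 (0.61, adjusted p = 0.0536) did not pass. The summed signal of the 33 members was between 297 and 423% of the control mean, lowest in pool 1. With any 1 pool left out, 17 to 19 members were called as fewer could pass the filter, and 29 to 30 on the same probe sets.

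The mitosis genes were also set against the larger tumors, and no single gene passed the test of that difference. The contrast of the small pools with the mean of middle-sized and large tumors called none of 6914 probe sets at an adjusted p under 0.05 (0%; limma, smallest adjusted p = 0.0917), although 4.57% were higher and 2.26% lower at an unadjusted p under 0.05 and array weights gave 12 higher and 4 lower calls. Of the 33 mitosis members, 12 were higher at that unadjusted threshold and none was lower, with a median log2 difference of 0.76. Ect2 read 115, 430.3, 229 and 82.9 in the middle-sized and 373, 141 and 106 in the large tumors (log2 difference 1.40, SE 0.45, adjusted p = 0.584). Mki67 read 120.2, 435, 224 and 50.6 and 626, 241 and 33.7 (log2 difference 1.48, SE 0.58, adjusted p = 0.693). In both genes the range of the pools overlapped with the highest single tumors, and the lowest single tumors were near or below the limit of 70. Cdk1 differed by less (log2 difference 1.07, SE 0.50, adjusted p = 0.729), with a 95% interval of 0.0022 to 2.14. Of the other lists, those with at least 3 genes higher in the pools at the unadjusted threshold were DNA replication (7 of 28), fibroblasts (6 of 37), endothelial cells (5 of 27), macrophages (4 of 19), alveolar type I cells (3 of 11), ribosome biogenesis (3 of 37) and interferon and antigen presentation (3 of 30). Those with at least 3 lower were glycolysis (4 of 15) and apoptosis (3 of 25). A pool averages 3 to 4 tumors and a single tumor does not, and this cannot be told apart from size here.

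**Figure D2:**
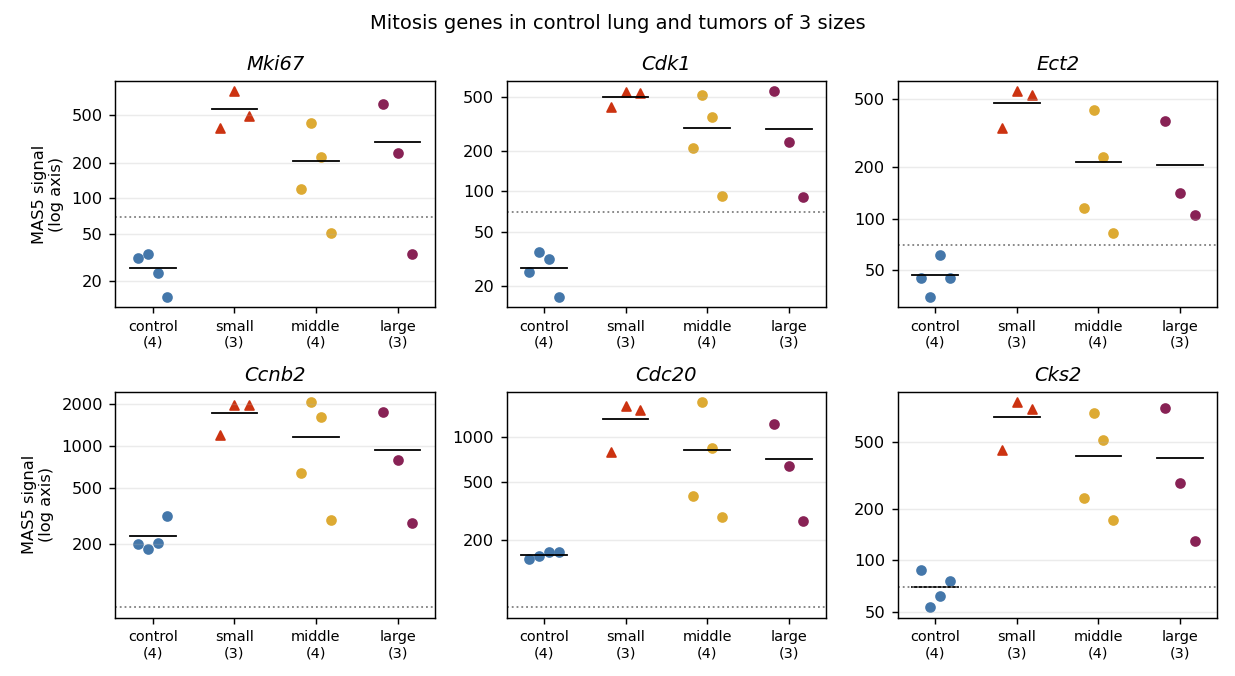
MAS5 signal (log axis) of 6 mitosis genes in control lung (n = 4), small tumor pools (n = 3), middle-sized (n = 4) and large tumors (n = 3), with 1 point per array, a bar at the group mean and a dotted line at 70. The small pools lie above all control lungs in each gene, for example at 416 to 539 for Cdk1, and the larger tumors spread from 90.8 to 547 for that gene.

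Genes for ribosome production rose nearly as a whole. Of 37 tested members, 32 were higher, 16 of them at least 3-fold, and none was lower, against 25.6% and 21.3% over all probe sets. The median log2 fold change was 1.38. In 6 members every control lung was below 70, and 26 of the other 31 rose. Nhp2, a core protein of the snoRNPs that modify rRNA, read 301, 282, 347 and 203 in control lung and 2123, 1613 and 1475 in the pools (log2 fold change 2.62, SE 0.20, adjusted p = 7.1e-06). Nop56, a core protein of box C/D snoRNPs, read 125, 122, 162 and 173 and 815, 876 and 671 (log2 fold change 2.44, SE 0.18, adjusted p = 6.7e-06). The ribosome assembly factor Nop16 rose by 2.41 and Nop58, the partner of Nop56, by at least 2.41. The groups were apart by several-fold in all of them. The abundant nucleolar proteins nucleolin (Ncl, 1.82), nucleophosmin (Npm1, 1.91) and fibrillarin (Fbl, 1.67) followed, as did the RNA polymerase I subunits Polr1a (1.31), Polr1b (1.18), Polr1c (1.12), Polr1d (1.71) and Polr1e (at least 0.80). The polymerase I factors Ubtf (0.31) and Rrn3 (0.08) did not pass the test. The summed signal was between 255 and 285% of the control mean in the pools and between 95.1 and 105% in the control lungs.

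The machinery of translation and folding was higher by a smaller amount. The shares over all probe sets were 25.6% higher and 21.3% lower. Among translation factors 14 of 21 tested members rose and none fell (median log2 fold change 0.54), with the largest changes in Eif2b1, part of the eIF2B complex that recharges eIF2 with GTP (175, 156, 174 and 98.7 in control lung, 608, 669 and 666 in the pools, log2 fold change 2.14), and in the eIF3 subunits Eif3e (2.07) and Eif3d (1.31). Of the aminoacyl-tRNA synthetases, which charge tRNAs, 12 of 19 rose and none fell (median 0.69), led by Farsa (1.38), Qars (1.33) and Vars (1.31). Of the chaperonins and heat shock proteins, 14 of 21 rose and none fell (median 0.76). Hspa9, the mitochondrial Hsp70, read 483, 586, 617 and 518 in control lung and 1563, 1169.8 and 1430.0 in the pools (log2 fold change 1.33, SE 0.14, adjusted p = 5.3e-05), with no overlap. Its mitochondrial partners Hspe1 and Hspd1 rose by 1.32 and 1.19, and the chaperonin subunits Cct3, Cct4, Cct5, Cct7 and Cct8 by 0.93 to 1.31. The stress-inducible or cytosolic Dnajb1 (-0.62), Dnaja1 (-0.34), Hsph1 (0.12) and Hsp90aa1 (0.06) did not pass the test.

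Of 23 tested enzymes of nucleotide, serine, one-carbon and polyamine synthesis, 17 rose and 1 fell (median 0.89). The shares over all probe sets were 25.6% and 21.3%. Shmt1, which moves carbon from serine to folate, read 77.5, 68.2, 56.9 and 67.1 in control lung and 432, 573 and 506 in the pools (log2 fold change 2.80, SE 0.16, adjusted p = 1.7e-06). Spermidine synthase Srm read 151, 144, 162 and 234 and 832, 747 and 795 (log2 fold change 2.22, SE 0.18, adjusted p = 1.2e-05), and ornithine decarboxylase Odc1, the first enzyme of polyamine synthesis, rose by 1.00 (SE 0.16). The groups did not overlap in these 3 genes. Cad, which starts pyrimidine synthesis, rose by 1.67, and Gart of purine synthesis by 1.56. Impdh1, an enzyme of guanine nucleotide synthesis, was the member that fell (651, 542, 552 and 576 against 232, 266 and 256, log2 fold change -1.21), and in the serine pathway Psat1 rose while Phgdh (0.16) and Psph (0.07) did not pass the test.

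Glycolysis genes were higher in 9 of 15 tested members and lower in 1 (median 0.69), against 25.6% and 21.3% over all probe sets. Ldha, the muscle-type subunit of lactate dehydrogenase, read 1566, 1400.5, 1672 and 1494 in control lung and 5597, 4598 and 5473 in the pools (log2 fold change 1.77, SE 0.12, adjusted p = 4.7e-06). Its heart-type counterpart Ldhb was the member that fell (483, 533, 504 and 404 against 377, 139 and 175, log2 fold change -1.19, adjusted p = 0.00849), with pool 1 near the lower control lungs and the call lost in 2 of 26 alternatives. The hexokinases Hk1 and Hk2 rose by 1.57 and 1.06, and the enzymes Pgam1, Tpi1, Pgk1, Aldoc, Pkm and Pfkl by 0.60 to 1.19. The glucose transporter Slc2a1 (-0.46) did not pass the test. Of 18 lipid synthesis genes, 7 rose and 2 fell. With pool 2, pool 3, control lung 1 or control lung 2 left out 3 to 4 rose, a share near or below the 25.6% over all probe sets of the main fit. Over all probe sets fewer were called higher in those fits too (1239 to 1541, against 1691). Fatty acid synthase (Fasn) read 656, 747, 924 and 1062 and 2354, 2707 and 2719 (log2 fold change 1.64, SE 0.17, adjusted p = 4.4e-05), and malic enzyme Me1, which makes NADPH, rose by 1.48. Acly (0.80) and Scd1 (0.66), enzymes of fatty acid synthesis and desaturation, rose as well. Of the enzymes of sterol synthesis, Fdps fell by 0.98, a call lost in 7 of 26 alternatives and not made by a second probe set, while Sqle (-0.56), Idi1 (-0.28), Fdft1 (-0.03) and Lss were not called. The fatty acid elongase Elovl5 was the other member that fell (-0.63).

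**Figure D3:**
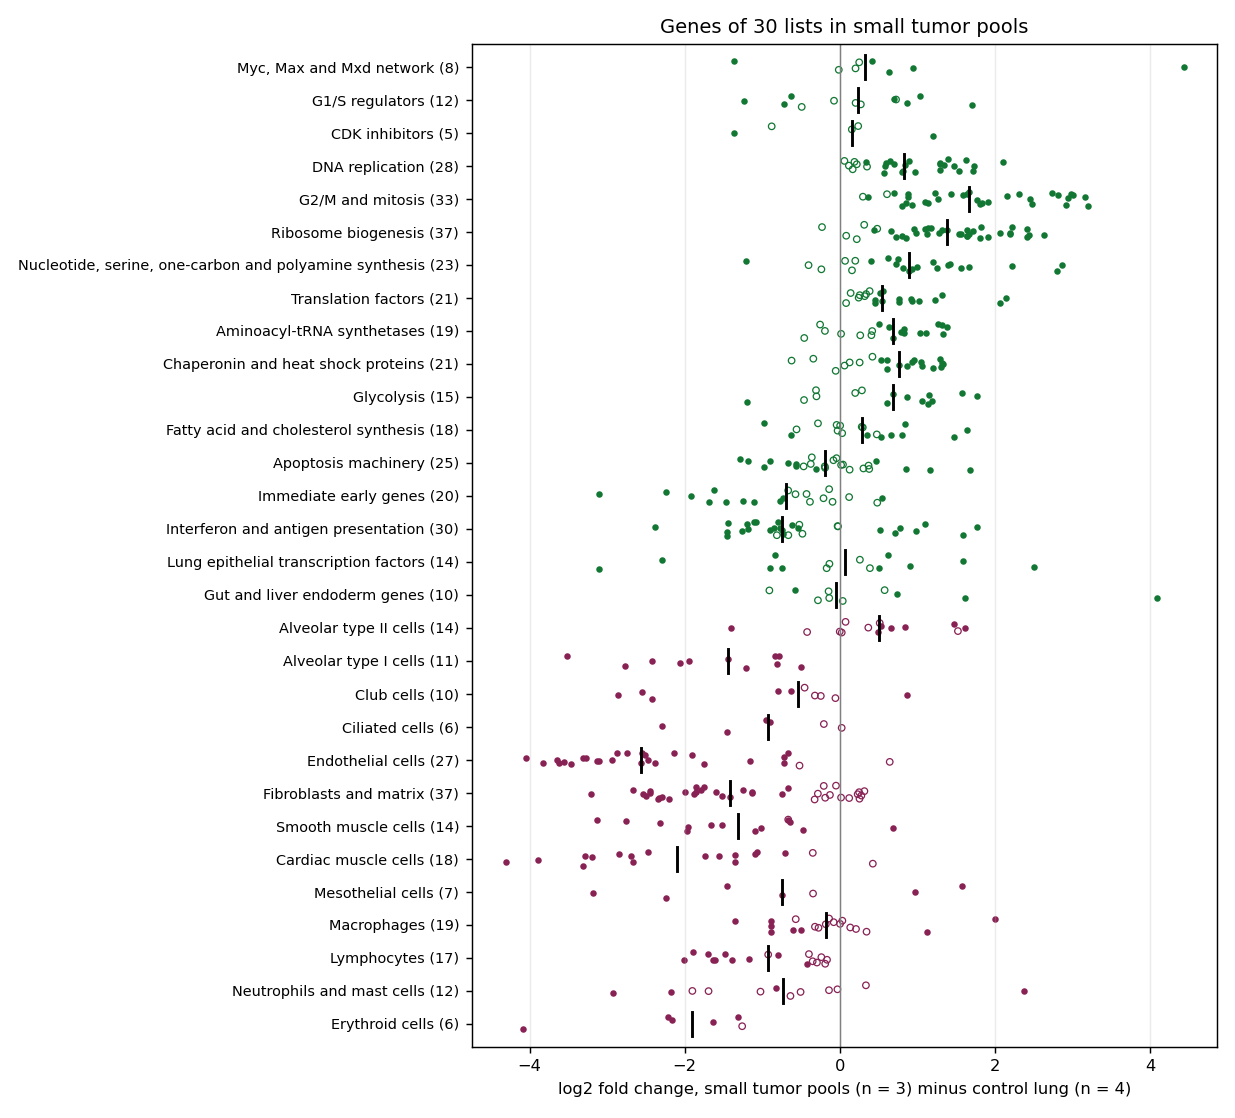
Log2 fold change of each tested gene (horizontal axis, small tumor pools minus control lung) in 30 lists, with the number of tested genes in parentheses, green for pathways and purple for cell type markers, filled points for genes called at an adjusted p under 0.05, open points for the others and black bars at list medians. Ribosome biogenesis and mitosis genes lie to the right with medians of 1.38 and 1.66, and endothelial and cardiac muscle markers to the left with medians of -2.56 and -2.11.

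Apoptosis genes moved in both directions, with 4 of 25 tested members higher and 8 lower (median -0.19), against 25.6% higher and 21.3% lower over all probe sets. Cideb, known as a lipid droplet protein as well as a death effector, was at 5.16, 9.81, 4.79 and 7.15 in control lung and 189.7, 232 and 252 in the pools, at least 3.19-fold higher. Aifm1, the mitochondrial apoptosis-inducing factor, rose from 371 ± 35.3 (SD, n = 4) to 829 ± 117 (SD, n = 3) (log2 fold change 1.16, SE 0.14, adjusted p = 1.2e-04). Bcl2, which inhibits apoptosis, read 213, 226, 241 and 293 in control lung and 88.8, 125 and 109 in the pools (log2 fold change -1.18, SE 0.18, adjusted p = 5.8e-04), and its binding partner Bnip2 fell by 1.28, while a second Bnip2 probe set was not called. These groups did not overlap. The death receptor Fas fell by at least 0.97 and the caspase inhibitor Xiap by 0.67. Casp8, Casp9, Casp6, Apaf1, Bad and Bak1 did not pass the test. Without pool 1, pool 2 or pool 3 the list had 1, 3 and 2 higher members and 4 to 7 lower ones, where fewer genes could pass the filter. On the same probe sets 2 were higher without pool 1, and 4 and 5 were lower without pools 2 and 3.

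Immediate early genes, which cells switch on within minutes of a signal, were lower in 10 of 20 tested members and higher in 1 (median -0.70), against 21.3% and 25.6% over all probe sets. Klf4, a transcription factor linked to growth arrest, read 1029, 946, 967 and 1652 in control lung and 143, 131 and 116 in the pools (log2 fold change -3.11, SE 0.20, adjusted p = 3.4e-06). Jun, part of the AP-1 factor, read 484, 598, 435 and 510.5 and 87.4, 126 and 111 (log2 fold change -2.24, SE 0.18, adjusted p = 1.0e-05). The MAP kinase phosphatase Dusp1 fell by 1.92, Ier3 by 1.69, Klf2 by at least 1.62, Fos by 1.46 and Nr4a1 by 1.10. Klf4 and Jun were several times lower in each pool than in any control lung. The AP-1 subunit Junb was the member that rose (271, 207, 201 and 247 against 358, 350.3 and 301, log2 fold change 0.55), with a call lost in 7 of 26 alternatives and none by its second probe set, and Fosb, Egr2, Zfp36, Atf3 and Btg2 did not pass the test.

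Of 30 tested genes of interferon response and antigen presentation 7 rose and 17 fell, against 25.6% higher and 21.3% lower over all probe sets. The 7 that rose code for class II molecules, which present peptides to CD4+ T cells, or for their partners, a grouping made with the values in view. H2-Ab1, a class II beta chain, read 876, 1016, 1446 and 1167 in control lung and 3351, 3277 and 3372 in the pools (log2 fold change 1.59, SE 0.16, adjusted p = 4.3e-05), and H2-DMb1, which helps to load peptides, read 625, 486, 679 and 544 and 1752, 2073 and 2093 (log2 fold change 1.76, SE 0.14, adjusted p = 1.0e-05). In both genes the pools were more than 2-fold above every control lung. H2-Aa (1.10), H2-Eb1 (0.98), H2-DMa (0.78), the invariant chain Cd74 (0.71) and the class II transactivator Ciita (0.52, adjusted p = 0.0297) also rose. Among those that fell were the class I heavy chains H2-K1 and H2-D1 (-0.79 and -0.75), whose probe sets may also read their close paralogs, beta-2 microglobulin (B2m, -0.77), the peptide transporters Tap1 and Tap2 (-0.85 and -1.18) and the immunoproteasome subunit Psmb9 (-1.46). Gbp2, an interferon-induced GTPase, read 420.3, 426, 612 and 410.2 in control lung and 94.4, 82.3 and 87.8 in the pools (log2 fold change -2.39, SE 0.18, adjusted p = 7.8e-06), and the factors Irf1 and Irf8 fell by 1.20 and 1.44. Ifit1, Ifit2, Irf7 and Isg15 did not pass the test.

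Of 14 tested transcription factors of lung epithelium 5 were higher and 5 lower, against 25.6% and 21.3% over all probe sets, and 3 were lower in the fit of all 4 groups. Elf5, an ETS factor of distal lung epithelium, read 258, 243, 231 and 176 in control lung and 1225, 1345 and 1244 in the pools (log2 fold change 2.50, SE 0.15, adjusted p = 2.3e-06). Cebpa, a factor of alveolar type II cells, rose by 1.58 (SE 0.13), Elf3 by 0.91, Foxa1 by 0.62 and Klf5 by 0.50. Sox2, a factor of the conducting airways, read 752, 578, 664 and 461 in control lung and 26.6, 49.4 and 36.3 in the pools, at least 8.62-fold lower (adjusted p = 2.1e-06), and Foxj1, the regulator of ciliated cells, fell from 580.3 ± 135 (SD, n = 4) to 122 ± 50.5 (SD, n = 3). Sox2 was above 70 in every control lung and below it in every pool. Gata6 (-0.83), Foxp1 (-0.74) and Cebpd (-0.90) fell less, and Foxa2 (0.26, 95% interval -0.07 to 0.59) was not called. Of genes of gut and liver epithelium, most were too low to test (10 of 32 on the array were tested), and besides Apob the mucin Muc1 (1231, 1496, 1799.5 and 1682 in control lung, 5170.2, 4455 and 4466 in the pools, log2 fold change 1.61) and the retinol carrier Rbp4 (0.73) rose, while Tff1 fell by 0.58. Muc1 is also counted in the alveolar type II list below.

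The label of lung tissue was borne out by its defining markers, and the alveolar type II set was kept in the pools. The surfactant protein C gene Sftpc read 9191, 12067, 6029 and 11936 in control lung and 10077, 8624 and 10192 in the pools, a log2 fold change of 0.02 with a 95% interval of -0.51 to 0.56. Sftpb (0.51, adjusted p = 0.0565) and the lysozyme Lyz2 (-0.0027, interval -0.37 to 0.37) were likewise not called. Of 14 tested type II markers 6 rose and 1 fell, against 25.6% and 21.3% over all probe sets, and the summed signal was between 125 and 142% of the control mean. Muc1, counted here and among the gut and liver genes, had the largest rise of the list (1.61). Chil1, a secreted chitinase-like protein, rose from 987, 949.7, 945 and 793 to 2442, 2405 and 2800.1 (log2 fold change 1.47, SE 0.12, adjusted p = 1.1e-05), the surfactant-processing protease Napsa by 0.53 and the phosphate transporter Slc34a2 by 0.49. The fatty acid transporter Cd36, which endothelial cells and macrophages also express, fell by 1.40. Only 3 rises were called without pool 2, and 3 in the fit of all 4 groups or without a filter. Over all probe sets fewer were called higher there too (1251, 1379 and 1437, against 1691 in the main fit).

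All 11 tested alveolar type I markers fell (median -1.44, against 21.3% lower over all probe sets), and their summed signal was at most 42.4% of the control mean. Podoplanin (Pdpn), a membrane glycoprotein of type I cells, read 602, 758, 672 and 612 in control lung and 90.2, 112 and 87.8 in the pools (log2 fold change -2.78, SE 0.16, adjusted p = 1.7e-06). The caveolin Cav1 fell by 2.07, Hopx by 1.94, Emp2 by 1.44 and Ager, the receptor most specific to these cells, by 0.81. Pdpn was over 5-fold lower in every pool than in any control lung, whereas Ager remained at 3414, 3631 and 3201 in the pools against 6129, 7199, 4502 and 6404. Cav1 and Emp2 are also expressed in endothelial cells, and Cyp2b10, which fell, is counted in both the type I and the club cell list. Of 10 club cell markers, 5 fell and 1 rose, against 21.3% and 25.6% over all probe sets, and 3 fell in the fit of all 4 groups. The retinal dehydrogenase Aldh1a1 read 5639, 7125, 4463 and 6279 in control lung and 915, 996 and 551 in the pools (log2 fold change -2.87, SE 0.22, adjusted p = 9.1e-06), and Aldh3a1 fell by 2.56, while the secretoglobin Scgb1a1, the defining product of club cells, differed by -0.46 with an interval of -0.93 to 0.02. Aldh1a7 was the member that rose (0.86, a call lost in 2 of 26 alternatives). Of 6 ciliated cell markers 4 fell, against 21.3% over all probe sets, but 1 in the fit of all 4 groups. In 2 of the 6 every pool was below 70, and 2 of the other 4 fell. Those that fell in the main fit were Foxj1, Mlf1 (log2 fold change -0.90 or lower), Spa17 (-0.95 or lower) and Tuba1a (-1.45). The call of Spa17 was lost in 2 of 26 alternatives, a second Tuba1a probe set was not called, and Tubb4b (0.02) and Rsph1 (-0.21) were not called.

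Endothelial markers had the lowest median of the cell type lists. Of 27 tested members 25 were lower, 21 of them at least 3-fold, and none was higher (median -2.56), against 21.3% lower over all probe sets. The summed signal was between 12.5 and 17.1% of the control mean in the pools. Besides Thbd, Ramp2, Tek and Icam2, the phosphatase Ptprb (-3.56), angiotensin-converting enzyme (Ace, -3.31), the claudin of vessels Cldn5 (-3.28), von Willebrand factor (Vwf, -3.11), VE-cadherin (Cdh5, -2.87), the receptors Tie1 (-3.13), Flt1 (-2.55) and Kdr (-1.91) and the factors Sox17 (-2.51) and Sox18 (-2.48) fell. Cdh5 read 3362, 2964, 2802 and 2241 in control lung and 329, 541 and 317 in the pools, with no overlap. The exceptions were Ramp3 (-0.52, adjusted p = 0.0582) and Pecam1, which read 78.8, 91.0, 80.6 and 162 in control lung and 166, 125 and 174 in the pools (0.64, adjusted p = 0.0698) and did not move with the other members.

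Of 37 tested members of the fibroblast and matrix list 24 fell, 17 at least 3-fold, and none rose (median -1.41, against 21.3% lower over all probe sets). In 6 members every pool was below 70, and 18 of the other 31 fell. Tcf21, a transcription factor of lung mesenchyme, read 869.9, 759, 1314 and 899 in control lung and 98.2, 110.2 and 97.5 in the pools (log2 fold change -3.21, SE 0.19, adjusted p = 2.0e-06). The elastic fiber protein Mfap4 fell by 2.67, the actin-severing gelsolin Gsn by 2.54, the factors Tbx2 by 2.45 and Foxf1 by at least 2.45, and the growth arrest gene Gas1 by at least 2.34. Tcf21 was more than 6-fold lower in every pool than in any control lung. The collagens Col1a1 (0.25, 95% interval -0.50 to 0.99), Col1a2 (0.23), Col3a1 (-0.13), Col5a1, Col5a2, Col6a1, Col6a2 and Col6a3, elastin (Eln, -0.05), biglycan (Bgn, 0.28) and fibronectin (Fn1, 0.12) were not called. Of the 9 collagens of the list, 8 were not called, with log2 fold changes of -0.33 to 0.32, and Col13a1 fell (-2.29).

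Contractile genes were lower as well. The shares over all probe sets were 21.3% lower and 25.6% higher, here and for the mesothelial markers below. Of 14 smooth muscle markers 12 fell and 1 rose (median -1.31), and of the 9 members at 70 or more in a pool 7 fell. Smooth muscle calponin Cnn1 read 461, 507, 604 and 353 in control lung and 4.88, 6.97 and 5.86 in the pools, at least 6.75-fold lower, and alpha smooth muscle actin (Acta2) fell from 1212, 1268, 1589 and 1040.0 to 243, 243 and 274 (log2 fold change -2.32, SE 0.15, adjusted p = 3.4e-06). Neither gene overlapped between groups. Tropomyosin Tpm1, which many cells express, rose by 0.68. Of 18 cardiac muscle markers 16 fell and none rose (median -2.11), but 13 of the 18 were below 70 in every pool and passed the filter only through control lung. Of the other 5 members 4 fell. Control lung 4 had the highest signals of Myl7, Myl4 and Myh6, and the summed cardiac signal of the control lungs ranged between 73.1 and 147% of their mean. Of 7 mesothelial markers, Igfbp6 (-3.18), Upk3b (-2.24), Msln (-1.45 or lower) and Dcn (-0.75) fell, and Dcn is also counted in the fibroblast list. The keratins Krt18 (641, 812, 551 and 405 in control lung, 1879, 1675 and 1679 in the pools, log2 fold change 1.58) and Krt8 (0.96) rose, and these are also keratins of alveolar epithelium.

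**Figure D4:**
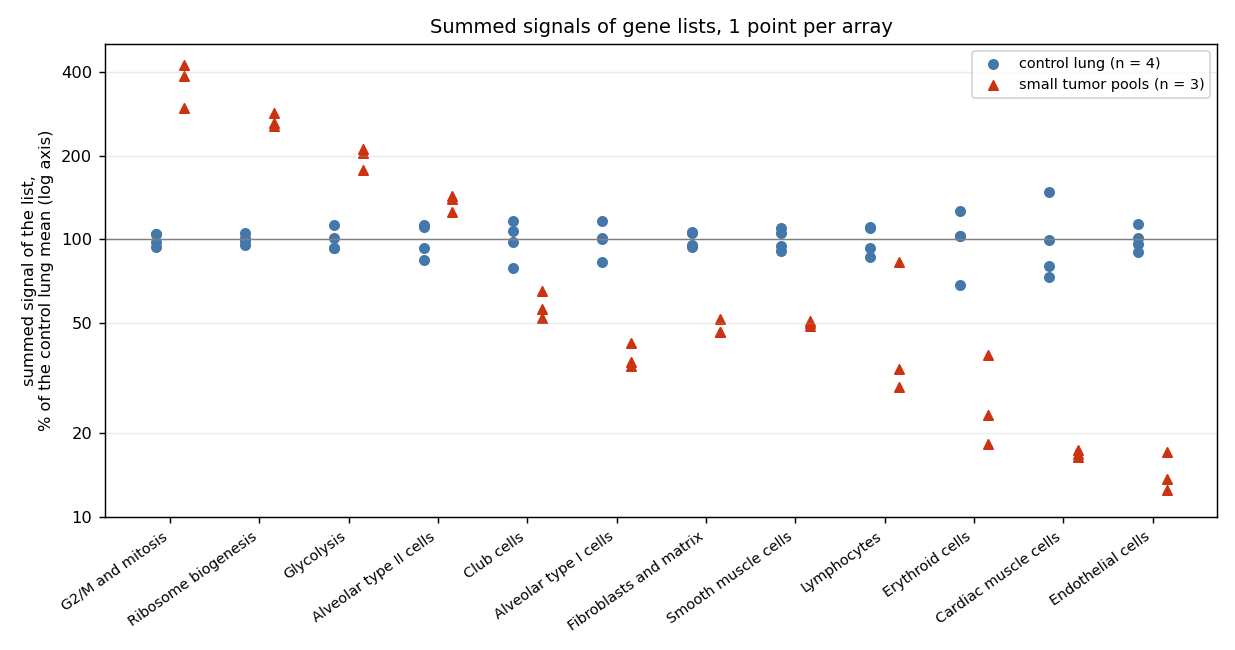
Summed MAS5 signal of the tested genes of 12 lists as percent of the control lung mean (vertical log axis), with 1 point per array, circles for control lung (n = 4) and triangles for small tumor pools (n = 3). Endothelial and cardiac sums lie near 12.5 to 17.4% in the pools, mitosis sums near 297 to 423%, and the lymphocyte sum of 1 pool, at 83.0%, stands apart from the other pools.

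Immune cell markers did not move together. Of 19 macrophage markers 6 fell and 2 rose (median -0.18), against 21.3% and 25.6% over all probe sets, and the summed signal was between 85.6 and 97.8% of the control mean. The complement genes C1qa (0.21), C1qb (0.00094) and C1qc (0.03) and the lysosomal marker Cd68 (0.34) were not called, Csf1r, the receptor of macrophage growth factor, fell by 0.88, and macrophage elastase Mmp12 (200.1, 118, 390.1 and 152 in control lung, 580.4, 949.6 and 843 in the pools, log2 fold change 2.00) and the endotoxin co-receptor Cd14 (1.13) rose. Of 17 lymphocyte markers 10 fell and none rose (median -0.92, against 21.3% lower over all probe sets), and 5 fell without a filter or by the methods' adjusted test. In 5 of the 17 every pool was below 70, and 7 of the other 12 fell. The summed signal of the 17 was 83.0% of the control mean in pool 1 and 34.1 and 29.4% in pools 2 and 3. Among those that fell were lymphotoxin beta (Ltb, -2.02), the chemokine Ccl5 (-1.89 or lower) and the B cell antigen Ms4a1 (-1.70). Cd4 (-0.40) and Cd3e (-0.30) were not called. Of 12 tested granulocyte and mast cell genes 3 fell (25%), a share near the 21.3% over all probe sets. Only 1 rose, against 25.6% over all probe sets, and 8 were not called. Kit, the stem cell factor receptor, fell by 2.93 and Ltf by 2.18. Lcn2, an iron-siderophore-binding protein that epithelium also makes, rose from 757, 566, 482 and 258 to 2469, 2434 and 2566 (log2 fold change 2.37, SE 0.30, adjusted p = 1.4e-04). A second, dim Lcn2 probe set was not called. Red cell genes were lower in 5 of 6 tested members, against 21.3% over all probe sets. The globin Hbb-b2 read 6177, 7024, 4278 and 5607 in control lung and 2028, 1068 and 944 in the pools (log2 fold change -2.16, SE 0.26, adjusted p = 1.2e-04). The part of red cells in other results was not tested.

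Although the pools were alike across most genes, a few genes differed widely between them, and in the 5 genes that varied most pool 1 stood apart from the other two. S100a8 and S100a9, the calgranulins of neutrophils, read 1740.3, 40.1 and 46.3 and 862, 57.0 and 28.5 in pools 1, 2 and 3. They were also divided among the control lungs, at 2061, 2271, 310.0 and 234 for S100a8 and 1392, 1376, 265 and 147 for S100a9, so that neither passed the test (adjusted p = 0.223 and 0.205). With pool 1 left out both were called lower, at -3.45 and -2.90 on the log2 scale. Pool 1 thus resembled the higher control lungs, and pools 2 and 3 were below all control lungs. Ighm, the heavy chain of IgM, read 1721, 368 and 284 in the pools against 1764, 1917, 1558 and 1663 in control lung (log2 fold change -1.61, adjusted p = 0.0242), a call lost in 9 of 26 alternatives. Of its other probe sets, 3 gave the same call, 4 were not called and 8 were below the filter. Dlk1, a Notch-related growth inhibitor that is imprinted, read 2889.9, 158 and 167 in the pools and 164, 118, 123 and 201 in control lung (adjusted p = 0.176). High Dlk1 was not peculiar to that pool, since the middle-sized tumors read 6297, 560.3, 3829.8 and 1580.0 and the large ones 163, 3629 and 1854. Prpsap1, a regulator of phosphoribosyl pyrophosphate synthesis, read 50.8, 522 and 534 in the pools and 223, 178, 191 and 181 in control lung, which puts pool 1 below and pools 2 and 3 above the control lungs. Its log2 fold change of 0.49 was not called with all pools, and it was 1.46 (adjusted p = 2.5e-04) without pool 1. Pool 1 also differed from the other two in its Xist signal, and the part of sex in these genes was not tested.

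**Figure D5:**
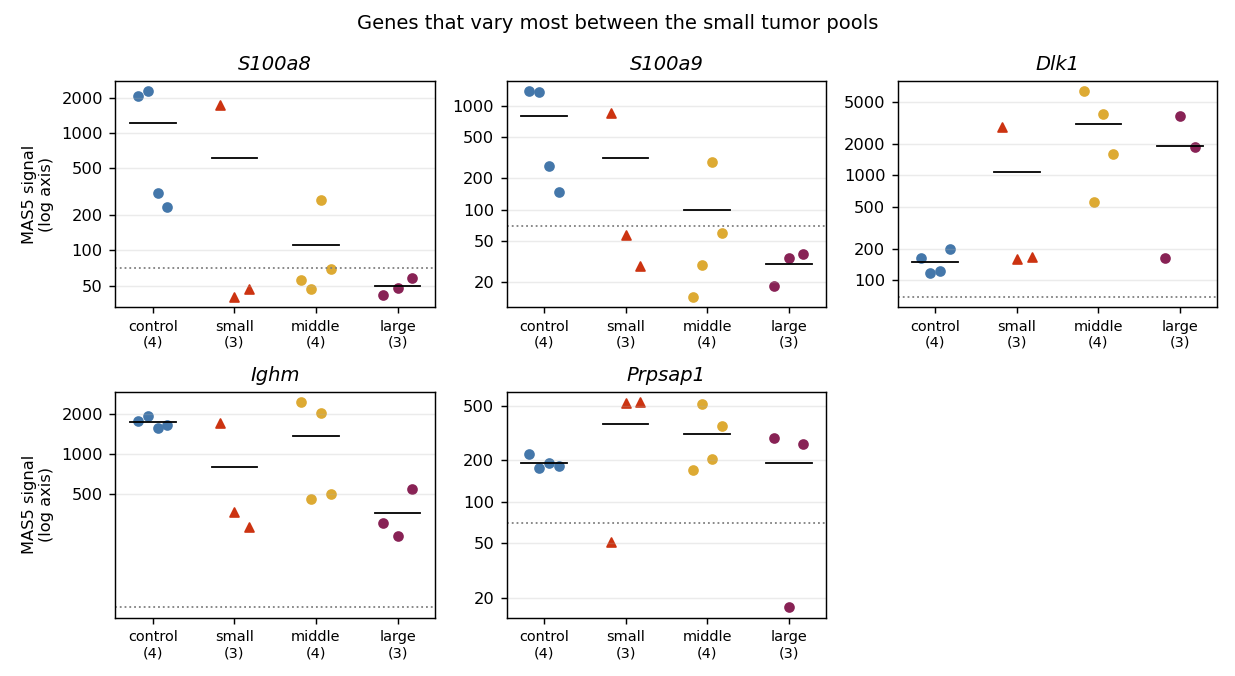
MAS5 signal (log axis) of the 5 genes with the largest SD of log2 signals between the small tumor pools, in control lung (n = 4), small pools (n = 3), middle-sized (n = 4) and large tumors (n = 3), with 1 point per array, a bar at the group mean and a dotted line at 70. In each panel 1 pool, the leftmost triangle, is separated from the other two, as at 2890 against 158 and 167 for Dlk1.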

How the data were processed

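RNA was hybridised to Affymetrix arrays, and the authors deposited MAS5 signals, an intensity on a linear scale, with the target signal set to 250. The detection and change calls of the methods were not used here. The table held 12488 probe sets. After removal of 66 controls, the platform annotation gave 1 symbol for 10833 of the 12422 left, several for 396 and none for 1193. Signals were set to at least 70 and log2 transformed, probe sets with at least 70 on at least 3 of the 7 arrays were kept, and each symbol was represented by its brightest probe set (highest mean), so that 6602 were tested (5864 with a symbol). The fit used limma 3.58.1 (R 4.3.3; lmFit and eBayes with trend) on the 7 arrays with Benjamini-Hochberg adjustment over all probe sets tested. Small pools were compared with the mean of middle-sized and large tumors in a fit of 4 groups over 14 arrays. Values below 1e-06 on 1 middle-sized array were treated as missing. They were 3125 probe sets (25.0%). With these values included, the median signal of that array was 48.6. Its trimmed mean signal was 194.9, against 249.1 to 249.6 on the other arrays. P-values against control lung measure the spread between animals. Those against the larger tumors rest on 1 common spread over control lungs, pools and single tumors.

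The comparison and the 31 gene lists (531 tested genes) were chosen with earlier results of these data known. Genes were named by rule, as the top 10 in each direction among called genes without overlap and with a mean of at least 70 in both groups, the top 6 in each direction among called genes under 70 throughout 1 group, per list the 3 called members that changed most and up to 2 called against the sign of its median, Myc, and the 5 genes with the largest SD between pools. A part of the rule for genes also called against larger tumors found none. One of the top rises is left unreported. Other members of the lists were picked with their values in view. Not called means an adjusted p of 0.05 or more.

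Alternatives were a floor of 35 or none, quantile normalization, scaling to 1 median, no filter, a stricter filter (4 arrays), every probe set of a symbol, robust eBayes with no trend, weighted arrays, a replicate block, the arrays without the 3 with Xist above 70, a fit of all 4 groups (for the larger tumors, 1 without control lung), the methods' unpaired test (p under 0.05 or adjusted) and each array left out. A filter on the mean signal and the arrays left out on the same probe sets were added after the data had been seen. The control and pool arrays with the same replicate number come from different animals, and their deviations from the group means correlated at 0.060, 0.045 and -0.043, so the numbers do not pair them. Promoter windows came from RefSeq (GRCm38.p6). The array design predates this build, and no coordinates of probe sets are given.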

Additional observations from a re-analysis of the deposited data

Results flagged for a closer look

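Among the 117 probe sets named, 6 had a control lung whose log2 signal stood apart from the other 3 by more than the limit of Dixon's test, which chance alone gives for about 1 in 20 groups. Control lung 4 was low for Rrm1 (23.5 against 77.0 to 97.3), for Aldh1a7 (399.7 against 695 to 736) and for Ms4a1 (135 against 306 to 335), and it was high for Klf4 (1652 against 946 to 1029). Control lung 3 was high for Gbp2 (612 against 410 to 426) and for Cd14 (804 against 688 to 700). In all 6 genes the array concerned lay on the same side of every pool as the other control lungs. The groups of 3 arrays were not examined in this way.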

How the results depend on the processing

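The counts of calls against control lung stayed within 1.5 times the main counts in every alternative, except that without a floor 256 probe sets were at least 3-fold higher and 477 at least 3-fold lower, since signals under 70 then enter as they are. Leaving out each array in turn gave 1239 to 1827 higher, 1118 to 1561 lower, 140 to 187 at least 3-fold higher and 301 to 346 at least 3-fold lower. With the replicate number as a block, which does not pair these animals, the 4 counts were 1764, 1546, 164 and 348, and S100a8 and S100a9 were called; no other named gene changed its call. Against the larger tumors, the count of higher probe sets was 1 without a filter and 0 to 2 with an array left out, and array weights gave 12 higher and 4 lower. In the other alternatives it stayed at 0.

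Of 117 named probe sets, 8 lost a call in at least 1 alternative, namely Aldh1a7, Fdps, Ighm, Junb, Ldhb, Mycl, Rbl2 and Spa17, and the cause was not tested. The log2 fold change of Prpsap1, which was not called, turned to -0.00791 without pool 3, also on the same probe sets. In the fit of all 4 groups the lower members fell to 1 for ciliated cells, 3 for club cells and 3 for epithelial factors, and without a filter or by the methods' adjusted test to 5 for lymphocytes and 5 for apoptosis. Signals near 70 limit what can be measured: fold changes of genes that cross it are bounds, and 480 probe sets tested were below it throughout 1 group.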
